A study of Mus musculus with 21 samples.

Results

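The genes described here code for matricellular proteins: Postn, Cilp, Thbs1, Thbs2, Thbs4, Comp, Tnc, Sparc and Ccn2. They were chosen by gene symbol, and all 9 were found among 23718 genes with reads and 15216 genes tested. RNA was sequenced from 21 hearts of male C57BL/6NJ mice that entered the study at 8 to 10 weeks of age. Chow was compared with a high-fat diet (HFD, 60% of calories as fat) over 10 weeks. The animals received an adeno-associated virus by injection behind the eye, and the hearts were freeze clamped 6 weeks later. The virus carried renin, which starts the cascade that ends in angiotensin II, or was a null vector. The 4 groups were chow control (titled chow_novirus, n = 4), chow renin (chow_Renin, n = 6), HFD control (HFD_novirus, n = 6) and HFD renin (HFD_Renin, n = 5). The titles name the null vector groups as without virus, while the series text gives them a null vector. The promoter of the renin vector, the chambers that were sampled and the pairing of animals by replicate number are not given in the sources used here. Diet and renin together were meant to model heart failure in which the ejection fraction is preserved.

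Matricellular proteins are secreted into the extracellular matrix but add little to its structure. They bind collagens, growth factors and cell surface receptors such as integrins, and so tune how cells attach, migrate and respond to transforming growth factor beta (TGF-beta). Most are abundant in the developing heart, low in the healthy adult heart, and made again by fibroblasts after injury or pressure overload.

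Library totals ranged from 18.7 M to 29.3 M (mega) estimated reads, and the highest chow control total, 21.4 M, was less than every total of the remaining groups, which began at 22.8 M. A list of 6 cardiomyocyte markers summed to between 41660 and 62630 CPM (reads of a gene scaled to the total of its library) in every library, so the tissue label fitted the heart muscle markers. Levels per length, in TPM (reads scaled to transcript length and library total), are the scale on which genes can be compared with each other. On that scale the median over 21 libraries was 115.0 TPM for Sparc, 29.7 for Ccn2, 6.81 for Postn, 5.11 for Thbs1, 3.55 for Thbs2, 1.86 for Cilp, 1.11 for Comp, 1.104 for Thbs4 and 0.545 for Tnc. The spread over libraries was 2.97-fold from lowest to highest for Sparc and 42.1-fold for Comp. The lowest Sparc library, 78.4 TPM, lay above the highest Ccn2 library, 73.1 TPM, while every other gene overlapped the next in this order. Levels below are CPM unless another unit is given, after TMM normalization, which removes differences in library size and composition but not in gene length.

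A set of 5 libraries stood apart before any comparison. Myl7, which codes for the atrial myosin regulatory light chain, measured 700 TPM in chow control replicate 3, 538 and 305 TPM in chow renin replicates 1 and 3, 595 TPM in HFD control replicate 3 and 442 TPM in HFD renin replicate 3. It measured 0.732 to 8.38 TPM in the other 16 libraries. A list of 6 atrial markers summed to between 243 and 575 CPM in those 5 libraries and to between 4.78 and 11.9 CPM in the other 16. A list of 10 tendon, cartilage and valve markers summed to between 61.6 and 113 CPM against between 16.9 and 51.0 CPM, and 5 adipose markers to between 5.92 and 46.3 CPM against between 0.209 and 2.15 CPM. Fibroblast markers, a list of 9, overlapped between the sets, at 1516 to 2517 CPM against 975 to 2014 CPM. Within groups they did not overlap, as each of the 5 libraries lay above all libraries of its group from the other set. These were 2126 against at most 1288 CPM in chow control, and 1774 against at most 1701 CPM in HFD renin. The 5 libraries are called high-Myl7 libraries below, and the tests of the members are given with and without them. Leaving them out was chosen after seeing the data.

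**Figure D1:**
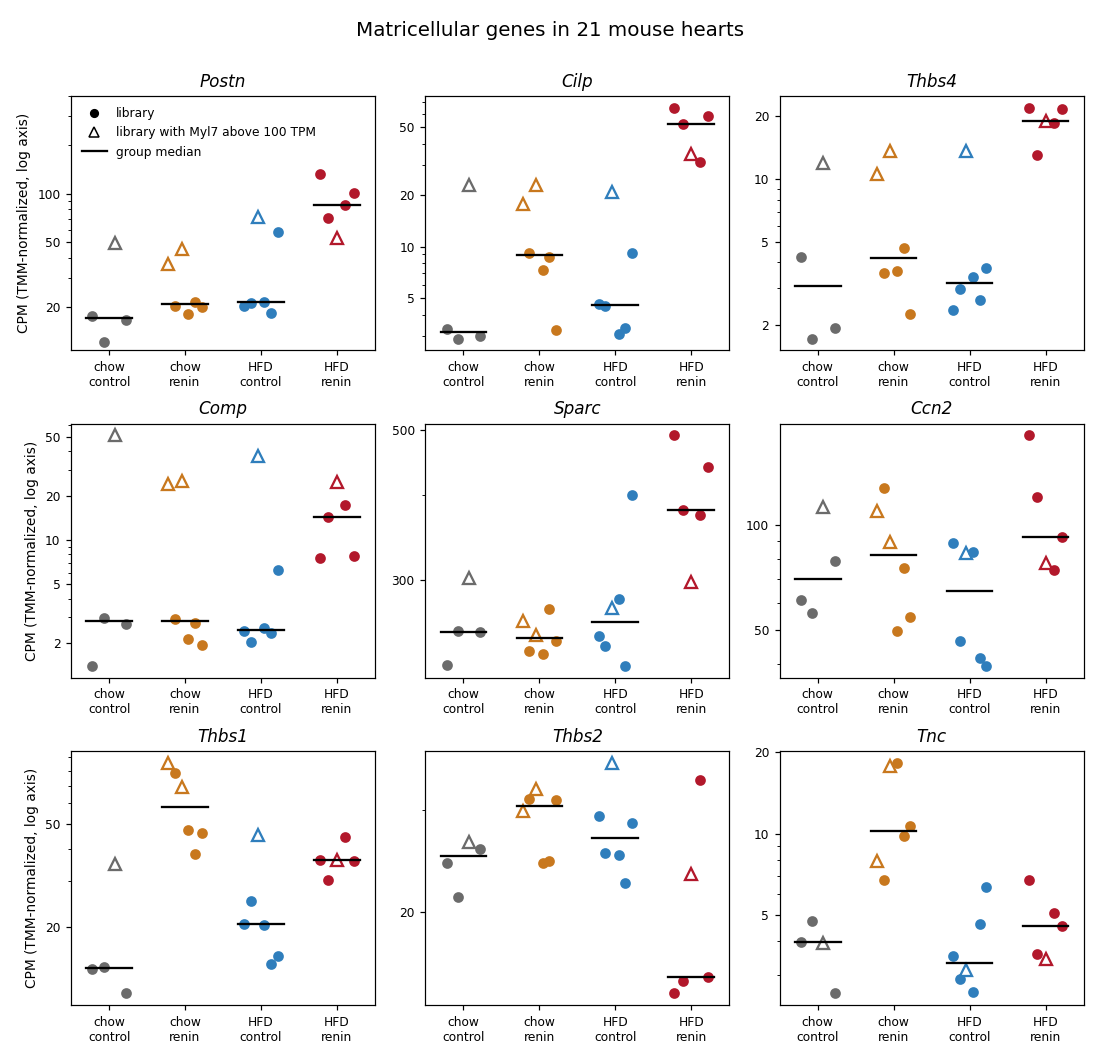
Level of each of the 9 genes in CPM (log axis) in 21 libraries, by group. Points are libraries, open triangles are the 5 libraries of high Myl7 and lines are group medians. Cilp in HFD renin, 31.2 to 65.0 CPM, lies above every library of the other 3 groups, while the triangles of Comp lie above all other libraries of their group.

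Comp was high in the high-Myl7 libraries of every group, and Thbs4, Cilp and Postn in those of every group but HFD renin. Comp, the pentameric cartilage oligomeric matrix protein of tendon and cartilage, measured 51.4 CPM in chow control replicate 3, 24.1 and 25.0 in chow renin replicates 1 and 3, 37.2 in HFD control replicate 3 and 24.8 in HFD renin replicate 3. In 5 of 5 cases the library exceeded all libraries of its group without high Myl7. The ratio to the mean of those libraries ranged from 2.11 in HFD renin to 21.9 in chow control, with a median of 10.3. Thbs4, a thrombospondin of tendon and injured muscle, had a median ratio of 3.83, Cilp 3.23 and Postn 2.28, and for each of these 3 genes the library exceeded all libraries of its group without high Myl7 in 4 of 5 cases. In HFD renin replicate 3 the ratio was 1.01 for Thbs4 and below 1 for Cilp, 0.673, and for Postn, 0.545. Sparc had a median ratio of 1.01, Thbs2 1.17, Ccn2 1.38, Thbs1 1.64 and Tnc 0.781. Among genes that are not members, Chad, a cartilage leucine-rich repeat protein, had a median ratio of 25.9 and Fmod, the tendon proteoglycan fibromodulin, 7.62. The labels do not say which chambers or attached tissues each sample held, so whether chamber, valve or other tissue gave these values was not tested. In bulk tissue, fewer cells of a type and less RNA per cell cannot be told apart.

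**Figure D2:**
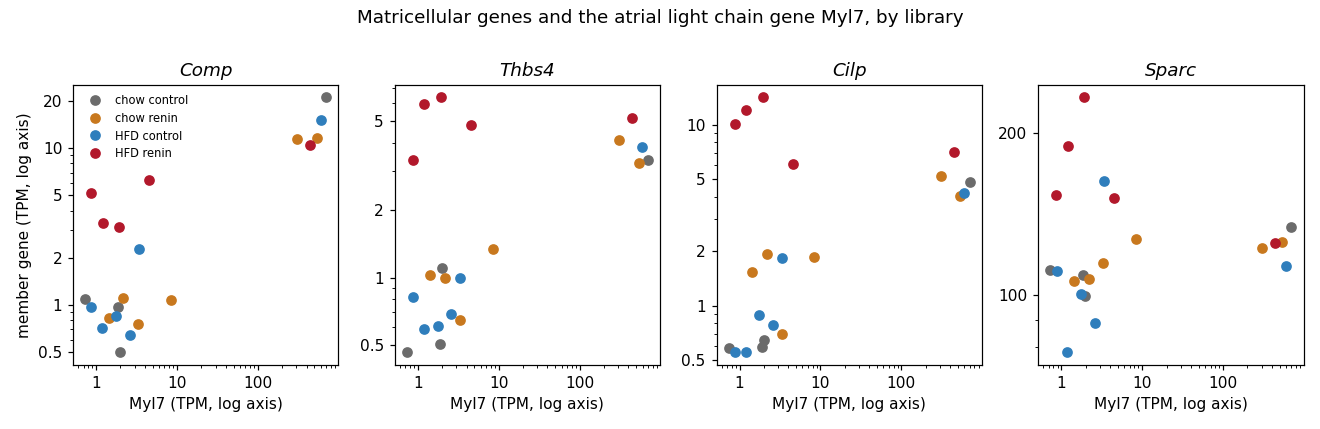
Levels of Comp, Thbs4, Cilp and Sparc against Myl7, all in TPM on log axes, with 1 point per library coloured by group. The 5 libraries at the right, at 305 to 700 TPM of Myl7, hold high Comp in each group, while Sparc there lies within the range of the other libraries.

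HFD renin was compared with chow control, from which it differed in both diet and renin, and with HFD control, from which it differed in renin alone. Against chow control, 3 of 9 members were called higher and 0 lower at an adjusted p under 0.05 (edgeR quasi-likelihood test, Benjamini-Hochberg over all genes), where 8.29% of all genes were called and 4.05% were called higher. Without the 5 high-Myl7 libraries 6 of 9 were called, all higher, where 8.34% of all genes were called and 4.05% were called higher. The median log2 difference of the members was 0.62, against 0.015 for all genes tested, and without the 5 libraries 1.49 against 0.010. Against HFD control, 3 of 9 were called higher, where 11.1% of all genes were called and 6.07% were called higher. Without the 5 libraries 6 of 9 were called higher, where 9.83% of all genes were called and 5.01% were called higher. The comparisons share the HFD renin libraries. The members were chosen with earlier results of these data known, so their counts and medians beside those of all genes are a description only.

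Cilp codes for cartilage intermediate layer protein, a matrix protein that binds TGF-beta. It measured 65.0, 52.5, 34.9, 31.2 and 58.5 CPM in HFD renin replicates 1 to 5 and 3.29, 2.89, 22.9 and 3.01 CPM in chow control replicates 1 to 4. HFD control ranged from 3.08 to 20.8 CPM with a median of 4.57, and chow renin from 3.24 to 22.9 with a median of 8.95. Every HFD renin library lay above every library of the other 3 groups, and the highest library of each of those groups was a high-Myl7 library. The log2 difference of HFD renin was 2.66 (SE 0.62, adjusted p = 0.01166) against HFD control and 2.59 (SE 0.72, adjusted p = 0.03413) against chow control. Without the 5 libraries it was 3.38 (SE 0.34, adjusted p = 0.0002814) and 4.06 (SE 0.44, adjusted p = 0.0003039), and Cilp ranked 7 and 10 from the top among 15142 genes. The call against chow control was lost without chow control replicate 1, 2 or 4, or HFD renin replicate 1, 2 or 5, with adjusted p from 0.0619 to 0.1136. It was also lost with no filter on low counts (adjusted p = 0.05269) and with only the 2 groups in the model (adjusted p = 0.08342).

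Postn codes for periostin, a protein secreted by activated fibroblasts that links collagen with integrins. HFD renin replicates 1 to 5 measured 133, 71.2, 53.2, 85.5 and 101 CPM. Chow control replicates 1 to 4 measured 17.5, 12.1, 49.2 and 16.6 CPM. HFD control ranged from 18.2 to 71.7 CPM with a median of 21.3, and chow renin from 18.1 to 45.4 with a median of 20.8. HFD renin lay above all chow control and chow renin libraries and overlapped HFD control through replicates 3 and 6, at 71.7 and 58.3 CPM. Against chow control the log2 difference was 1.89 (SE 0.52, adjusted p = 0.03121). Against HFD control it was 1.33 (SE 0.44, adjusted p = 0.05862), which did not pass. Without the 5 libraries the values were 2.65 (SE 0.39, adjusted p = 0.001909) and 1.81 (SE 0.31, adjusted p = 0.00452). The call against chow control was lost without chow control replicate 1, 2 or 4, or HFD renin replicate 1 or 5, with adjusted p from 0.06472 to 0.1044, and with only the 2 groups in the model (adjusted p = 0.06788). The call against HFD control was gained without HFD control replicate 6 (adjusted p = 0.04719).

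Thbs4 codes for thrombospondin 4, which lies in the matrix and in the endoplasmic reticulum and is induced in overloaded hearts. Its 5 HFD renin libraries measured 22, 13.1, 19.1, 18.6 and 21.8 CPM, and chow control measured 4.23, 1.72, 11.9 and 1.94 CPM. HFD control ranged from 2.35 to 13.6 CPM with a median of 3.19, and chow renin from 2.27 to 13.6 with a median of 4.18. Of the other groups only replicate 3 of HFD control and of chow renin, both high-Myl7 libraries at 13.6 CPM, exceeded the lowest HFD renin value, and chow control did not overlap it. Against HFD control the log2 difference was 1.97 (SE 0.56, adjusted p = 0.03062), and against chow control it was 1.93 (SE 0.65, adjusted p = 0.07442). Without the 5 libraries it was 2.63 (SE 0.24, adjusted p = 1.603e-05) and 2.82 (SE 0.29, adjusted p = 7.641e-05). The call against HFD control was lost without HFD control replicate 2, 4, 5 or 6, or HFD renin replicate 1 or 5, with adjusted p from 0.05706 to 0.07727.

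Of the 9 members, Comp changed most in both comparisons when the high-Myl7 libraries were left out. HFD renin measured 7.59, 14.3, 24.8, 17.4 and 7.74 CPM, and chow control 1.395, 2.94, 51.4 and 2.71 CPM. HFD control ranged from 2.05 to 37.2 CPM with a median of 2.46, and chow renin from 1.94 to 25.0 with a median of 2.83. With all libraries the log2 difference against chow control was -0.021 (SE 1.13, adjusted p = 0.993) and against HFD control 0.70 (SE 1.02, adjusted p = 0.7191), neither of which passed. Among the 16 other libraries, the 4 HFD renin hearts at 7.59 to 17.4 CPM lay above all 12 others at 1.395 to 6.27 CPM. In the same 16 libraries the 10 tendon, cartilage and valve markers summed to 30.6, 35.8, 51.0 and 36.6 CPM in HFD renin replicates 1, 2, 4 and 5 and to between 16.9 and 31.5 CPM in the 12 others. Chad ranged there from 0.271 to 3.21 CPM and Fmod from 1.32 to 12.7 CPM in HFD renin, overlapping the other groups, at 0.112 to 0.674 CPM and 1.20 to 4.70 CPM. The part of such tissue in the values of Comp, Thbs4 and Cilp was not tested. There the log2 difference was 2.31 (SE 0.42, adjusted p = 0.004381) against chow control and 1.92 (SE 0.33, adjusted p = 0.003649) against HFD control. Comp had as few as 28 estimated reads in a library.

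Sparc codes for osteonectin, a collagen-binding protein that is needed for collagen fibrils to mature. It was the most abundant member and had the smallest of the called changes. HFD renin measured 491, 381, 298, 375 and 440.1 CPM, and chow control 225, 252, 302 and 251 CPM. HFD control ranged from 223.7 to 401 CPM with a median of 260.0, and chow renin from 233 to 272 with a median of 246. HFD renin lay above all chow renin libraries and overlapped both control groups. Its lowest library, replicate 3, was its high-Myl7 library, and the other 4 overlapped only HFD control replicate 6. The log2 difference was 0.52 (SE 0.13, adjusted p = 0.01365) against HFD control and 0.62 (SE 0.14, adjusted p = 0.01074) against chow control. Without the 5 libraries it was 0.59 (SE 0.13, adjusted p = 0.009115) and 0.78 (SE 0.15, adjusted p = 0.004615). Without HFD renin replicate 1 the call against HFD control was lost, at an adjusted p of 0.05334, as it was with only the 2 groups in the model, at 0.07199.

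**Figure D3:**
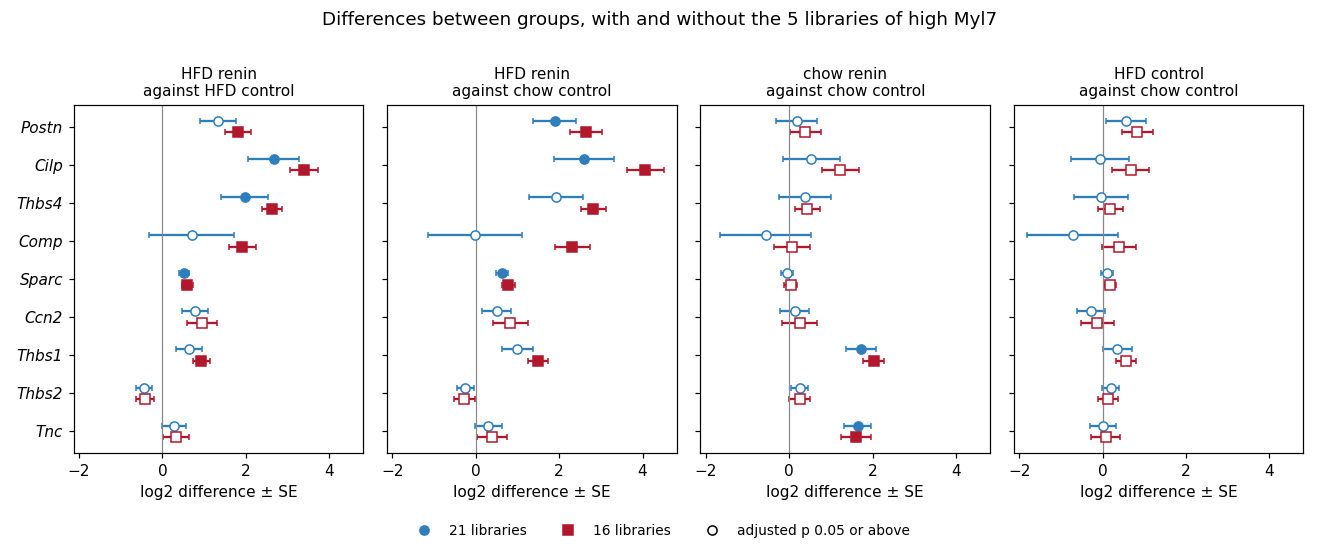
Log2 difference with its SE (edgeR) of the 9 genes in 4 comparisons, from 21 libraries (circles) and from the 16 without high Myl7 (squares). Filled symbols have an adjusted p under 0.05. Comp moves from -0.021 to 2.31 against chow control between the fits, while Thbs1 and Tnc are called in chow renin in both.

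Some clock genes differed between the same groups. A clock score, the mean log2 CPM of 6 genes of the Dbp phase (such as Dbp and Per3) minus that of 4 genes of the opposite phase (such as Arntl), was 2.57 to 3.88 in HFD renin, 4.02 to 4.26 in chow control, 3.83 to 4.10 in HFD control and 3.41 to 3.73 in chow renin. With that score in the model, 0 of 9 members were called in HFD renin against chow control or against HFD control, and of all genes 0 and 9 were called, so the counts say nothing particular about the members. The log2 differences then were 1.97 for Cilp, 1.41 for Postn and 0.39 for Sparc against chow control, and 2.13 for Cilp, 1.84 for Thbs4 and 0.33 for Sparc against HFD control, with adjusted p from 0.4377 to 0.5796. The score of HFD renin did not overlap that of chow control and overlapped that of HFD control. Of the 6 genes of the Dbp phase 2 were called lower against each control group, and of the 4 others 1 was called higher. Of all genes 8.29% were called against chow control and 11.1% against HFD control. Collection times are not given in the sources used here, and against chow control the score and the group cannot be told apart. Cardiomyocyte markers were called lower in 4 of 6 cases in HFD renin against either control. Fibroblast markers were called higher in 1 of 9 cases against chow control and 0 of 9 against HFD control, with median log2 differences of 0.11 and 0.018. Among libraries without high Myl7 the fibroblast sum was 1318 to 1701 CPM in HFD renin. That lay above chow control, at 1082 to 1288 CPM, and overlapped HFD control, at 1275 to 2014 CPM. The part of cardiomyocyte or fibroblast content in the members' values was not tested.

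Since Cilp, Postn, Thbs4 and Sparc were each called higher in HFD renin against at least 1 control group, the 250 bases before their RefSeq start sites (GRCm38.p6) are shown, 5′ to 3′ on the strand of the gene. RefSeq promoter entries matched 6 of 9 members. Capitals mark matches, on either strand, to TATAAA (the core promoter box), GGAATG (the TEAD site of the Hippo pathway), TGANTCA (AP-1), CAGACA (a SMAD site of TGF-beta signalling) or the CArG box of serum response factor.
Postn promoter, chr3:54360857-54361106, plus strand: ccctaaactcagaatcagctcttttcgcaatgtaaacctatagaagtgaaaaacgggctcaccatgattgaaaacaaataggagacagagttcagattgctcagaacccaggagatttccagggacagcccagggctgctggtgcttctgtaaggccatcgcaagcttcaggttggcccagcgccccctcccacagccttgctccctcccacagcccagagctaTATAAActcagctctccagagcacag
Cilp promoter, chr9:65264930-65265179, plus strand: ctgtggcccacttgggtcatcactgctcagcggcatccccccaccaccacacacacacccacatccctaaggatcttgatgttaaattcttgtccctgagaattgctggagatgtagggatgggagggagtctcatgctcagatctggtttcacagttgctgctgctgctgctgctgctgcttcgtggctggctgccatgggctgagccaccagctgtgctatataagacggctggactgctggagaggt
Thbs4 promoter, chr13:92794819-92795068, minus strand: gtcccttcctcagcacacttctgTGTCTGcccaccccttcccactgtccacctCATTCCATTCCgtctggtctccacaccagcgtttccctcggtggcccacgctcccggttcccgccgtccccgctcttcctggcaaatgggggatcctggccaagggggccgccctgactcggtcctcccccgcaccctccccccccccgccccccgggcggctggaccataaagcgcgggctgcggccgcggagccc
Sparc promoter, chr11:55420081-55420330, minus strand: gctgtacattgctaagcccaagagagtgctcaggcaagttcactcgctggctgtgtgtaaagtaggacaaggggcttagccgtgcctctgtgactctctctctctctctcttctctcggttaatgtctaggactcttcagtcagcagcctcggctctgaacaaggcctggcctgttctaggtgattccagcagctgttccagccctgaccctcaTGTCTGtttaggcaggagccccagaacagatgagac

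The Postn window held TATAAA starting 26 bases before the start site. RefSeq has another Postn start site, 1842 bases before the annotated start of the gene, whose window is not shown and held none of the 5 motifs. Thbs4 held the CAGACA motif on the opposite strand at position -227 and 2 overlapping GGAATG matches on the opposite strand at -197 and -192, and Sparc held the CAGACA motif on the opposite strand at -36. The Cilp window held none of the 5 motifs as written. Only the letters given were searched, so near forms of TATAAA, such as the tatataag in the Cilp window, were not marked or counted. Across 32851 promoters of that length, 12.4% held TATAAA, 12.6% GGAATG, 6.75% TGANTCA, 17.1% CAGACA and 1.47% the CArG box, and no motif was shared by the 4 windows. The Sparc start site used lies 3103 bases inside the outermost annotated start of the gene. By GENCODE M21 on GRCm38, Postn (ENSMUSG00000027750) spans chr3:54361109-54391037, Cilp (ENSMUSG00000042254) chr9:65265180-65280605, Thbs4 (ENSMUSG00000021702) chr13:92751590-92794818, Sparc (ENSMUSG00000018593) chr11:55394500-55423183 and Comp (ENSMUSG00000031849) chr8:70373558-70382066. Thbs1 (ENSMUSG00000040152) spans chr2:118111876-118127133, Thbs2 (ENSMUSG00000023885) chr17:14665500-14694235, Tnc (ENSMUSG00000028364) chr4:63959785-64047015 and Ccn2 (ENSMUSG00000019997) chr10:24595442-24598683.

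Renin was also compared with the null vector on chow. Thbs1 and Tnc were called higher in chow renin against chow control, 2 of 9 members, where 13.5% of all genes were called and 10.1% were called higher. The same count, 2 of 9, was called without the high-Myl7 libraries, where 10.3% of all genes were called and 8.88% were called higher. Thbs1 codes for thrombospondin 1, an activator of latent TGF-beta and a ligand of CD36 and CD47. It ranged from 38.2 to 85.9 CPM in chow renin with a median of 58.2, and measured 13.8, 14.0, 34.8 and 11.1 CPM in chow control. All 6 chow renin libraries lay above all 4 controls. The log2 difference was 1.72 (SE 0.36, adjusted p = 0.002624), and 2.03 (SE 0.25, adjusted p = 5.01e-05) without the 5 libraries. In HFD renin Thbs1 measured 36.4, 30.4, 36.4, 44.4 and 36.0 CPM, above 3 of 4 chow controls, and HFD control ranged from 14.5 to 45.2 CPM with a median of 20.5. HFD renin did not pass for Thbs1 against chow control, log2 difference 0.99 (SE 0.37, adjusted p = 0.1046), or against HFD control, 0.64 (SE 0.32, adjusted p = 0.2149). Without the 5 libraries both passed, at 1.49 (SE 0.25, adjusted p = 0.00284) and 0.93 (SE 0.20, adjusted p = 0.0121).

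Tnc codes for tenascin C, a hexameric anti-adhesive protein of remodelling tissue. It was the least abundant member, with 53 to 480 estimated reads per library. Chow renin ranged from 6.75 to 18.3 CPM with a median of 10.3, and chow control measured 3.98, 4.78, 3.94 and 2.57 CPM. HFD control ranged from 2.60 to 6.36 CPM with a median of 3.33, and HFD renin measured 6.74, 3.59, 3.45, 5.09 and 4.57 CPM. The lowest chow renin library, at 6.749 CPM, lay just above the highest HFD renin library, at 6.742 CPM, so the groups did not overlap by a narrow margin. Against chow control the log2 difference was 1.64 (SE 0.31, adjusted p = 0.0007646), and without the 5 libraries 1.61 (SE 0.36, adjusted p = 0.006844). The call held in all 32 alternatives tried.

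Chow renin libraries also carried more RNA of neuron and oligodendrocyte genes. A list of 7 central neuron markers summed to between 119.5 and 199.5 CPM in chow renin and to between 28.3 and 52.8 CPM in the other 3 groups, and all 7 were called higher than in chow control. All 5 oligodendrocyte markers were called higher too. Of 5 astrocyte markers 3 were called higher, while their sum, 345 to 449 CPM in chow renin, overlapped that of chow control, 318 to 494 CPM. With the mean of the neuron markers in the model, the log2 difference of Thbs1 was -0.024 (adjusted p = 0.9988) and that of Tnc was 3.89 (adjusted p = 0.02881). The neuron score of chow renin, 3.58 to 4.34, did not overlap that of the other groups, 1.54 to 2.49, so the score and the group cannot be told apart.

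HFD renin and chow renin differed in 5 of 9 members, 4 higher and 1 lower on the high-fat diet, where 22.6% of all genes were called, 9.8% as higher and 12.8% as lower. Cilp was higher by 2.07 (SE 0.60, adjusted p = 0.01827), Postn by 1.72 (SE 0.44, adjusted p = 0.008943), Thbs4 by 1.56 (SE 0.54, adjusted p = 0.04625) and Sparc by 0.67 (SE 0.13, adjusted p = 0.0004873) on the log2 scale, and Tnc differed by -1.34 (SE 0.28, adjusted p = 0.001291). The Thbs4 call was lost in 16 of 32 alternatives, 12 of them with a single library left out, at adjusted p from 0.05211 to 0.09948 in those 12. They were chow control replicate 1, chow renin replicates 2, 4, 5 and 6, HFD control replicates 2 and 4, and each HFD renin replicate. Without the high-Myl7 libraries the 5 calls held and Comp was called too, 2.24 (SE 0.36), for 6 of 9, where 16.2% of all genes were called, 4.99% as higher and 11.2% as lower. With the neuron score in the model, 1 of 9 was called, Tnc, and 41 of all genes.

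The test of the interaction asks whether the effect of renin differed between diets. It called 1 of 9 members, Tnc, where 10.4% of all genes were called and 7.3% had a negative value. The effect of renin on Tnc was smaller by 1.36 on the high-fat diet, as the log2 value was -1.36 (SE 0.42, adjusted p = 0.04374). That call was lost in 19 of 31 alternatives, 12 of them with a single library left out, and the adjusted p of the 12 ranged from 0.05022 to 0.09565. They were replicates 1, 3 and 4 of chow control, 3, 4 and 6 of chow renin, 1, 5 and 6 of HFD control, and 2, 3 and 5 of HFD renin. With the replicate block the value was -1.17 (adjusted p = 0.1664). Leaving out the high-Myl7 libraries, the Tnc value was -1.29 (adjusted p = 0.1277), and 3 of 9 members were called, where 7.17% of all genes were called, 1.3% with a positive and 5.87% with a negative value: Thbs4 at 2.19 (SE 0.39, adjusted p = 0.001309), Cilp at 2.16 (SE 0.56, adjusted p = 0.03262) and Thbs1 at -1.11 (SE 0.32, adjusted p = 0.04981). Among 21 libraries Sparc gave 0.56 (SE 0.19, adjusted p = 0.05782) and Cilp 2.14 (SE 0.91, adjusted p = 0.1615). With 1 library left out the Cilp value ranged from 0.75, without chow control replicate 3, to 2.75, without HFD control replicate 3.

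The high-fat diet alone gave no member past the threshold. HFD control against chow control called 0 of 9 by edgeR, 0 by DESeq2 and 0 by limma, and 0 had an unadjusted p under 0.05, where 0.0657% of all genes were called. The median log2 difference of the members was 0.014. Postn had a value of 0.56 (SE 0.49, adjusted p = 0.7192) and Sparc of 0.11 (SE 0.14, adjusted p = 0.8243). The Postn value ranged from 0.22, without HFD control replicate 3, to 1.19, without chow control replicate 3, when 1 library was left out. Without the high-Myl7 libraries 0 of 9 were called, as were 0% of all genes, and the median of the members was 0.19, with Postn at 0.84 (SE 0.36, adjusted p = 0.5047) and Sparc at 0.19 (SE 0.14, adjusted p = 0.6927).

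Thbs2 and Ccn2 passed in none of the 6 comparisons, with or without the high-Myl7 libraries. Thbs2 codes for thrombospondin 2, which inhibits angiogenesis and binds matrix proteases. It measured 14.4, 15.2, 23.3, 33.9 and 15.4 CPM in HFD renin and 24.3, 21.2, 26.5 and 25.6 CPM in chow control, ranged from 22.5 to 36.3 CPM in HFD control and from 24.3 to 32.6 CPM in chow renin. Of the 5 HFD renin libraries, 3 lay below every library of the other groups, and replicate 4 lay above all but 1 of them. The difference from HFD control was -0.45 (SE 0.18, adjusted p = 0.1259) and from chow renin -0.50 (SE 0.18, adjusted p = 0.0553) on the log2 scale. Ccn2 codes for connective tissue growth factor, a target of TGF-beta and of the Hippo coactivators YAP and TAZ. It measured 182, 121, 77.8, 74.7 and 93.0 CPM in HFD renin and 61.1, 56.0, 113 and 79.3 CPM in chow control, and ranged from 39.5 to 89.2 CPM in HFD control and from 49.8 to 128 CPM in chow renin. The groups overlapped. The largest difference among 21 libraries, 0.77 against HFD control (SE 0.32, adjusted p = 0.1238), did not pass. Without the high-Myl7 libraries it was 0.95 (SE 0.36, adjusted p = 0.115).

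HFD control replicate 6 stood apart without high Myl7, at 3.35 TPM. It held 401 CPM of Sparc, 58.3 of Postn, 9.21 of Cilp, 6.27 of Comp, 6.36 of Tnc and 3.77 of Thbs4. For each gene this was the highest value of its group among the libraries without high Myl7. Its fibroblast markers summed to 2014 CPM against 1275 to 1457 CPM in the 4 other such libraries, its smooth muscle markers to 218 CPM against 85.2 to 152 CPM, and its endothelial markers to 864 CPM against 698 to 761 CPM. Its macrophage markers, at 104 CPM against 65.0 to 80.4, platelet markers, at 14.0 against 5.45 to 9.26, and Schwann cell markers, at 15.4 against 7.89 to 9.64, were also above those of the 4 libraries, as were the sums for blood, mesothelium, atrial, and tendon, cartilage and valve markers. Its cardiomyocyte markers were lower, at 47920 CPM against 51580 to 56790 CPM, as were its astrocyte and adipose markers and both clock lists. Thbs1, at 15.5 CPM, and Ccn2, at 39.5 CPM, were not raised in it, and Thbs2, at 28.5 CPM, lay below replicate 1, at 29.4 CPM. The part of cell composition was not tested.

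Postn transcripts differed by 2 alternative exons in the region that codes for the variable carboxy-terminal end of periostin, and the sequences of these exons are given since the mix of forms differed between the high-Myl7 libraries and the others. Both have a length that is a multiple of 3. The 81-base exon, the 17th of transcript Postn-202, is in transcripts Postn-202 and Postn-203, and the 84-base exon, the 20th of Postn-201, is in Postn-201 and Postn-202.
Postn 81-base exon, chr3:54380412-54380492, plus strand: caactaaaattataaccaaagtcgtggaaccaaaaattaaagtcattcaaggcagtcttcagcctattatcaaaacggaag
Postn 84-base exon, chr3:54385671-54385754, plus strand: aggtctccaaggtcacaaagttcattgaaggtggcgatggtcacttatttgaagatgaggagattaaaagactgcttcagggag

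The share of 4 long Postn transcripts (by TPM) that held the 81-base exon was 31.1% to 36.0% in the 5 high-Myl7 libraries, with a mean of 33.4% ± 2.29 (SD, n = 5). Among the other libraries it was 24.4%, 20.5%, 26.7% and 23.5% in HFD renin replicates 1, 2, 4 and 5, and 9.88%, 0% and 18.6% in chow control replicates 1, 2 and 4. In the HFD controls without high Myl7 it was 4.85% to 8.44% in 4 libraries and 19.8% in replicate 6, and in chow renin 9.98% to 20.3%. All 4 HFD renin hearts lay above all 12 other hearts of that set, by a margin of 20.5% over 20.3%. Replicate 3 of HFD renin, its high-Myl7 library, had the lowest Postn level of that group and, at 31.1%, the highest share. For the 84-base exon the groups without high Myl7 overlapped, at 9.81% to 26.3% in HFD renin, 11.7% to 18.2% in chow control, 6.83% to 17.4% in HFD control and 8.06% to 19.8% in chow renin, and the high-Myl7 libraries ranged from 21.3% to 40.1%. Transcripts with neither exon made up 49.1% to 68.6% in those HFD renin libraries, 70.9% to 81.8% in chow control, 64.8% to 89.9% in HFD control and 62.5% to 80.6% in chow renin, and 29.4% to 54.8% in the high-Myl7 libraries. These shares are estimates from short reads over 207.1 to 3056 estimated reads of the 4 transcripts per library, the 0% library being the one with the fewest, and no test was run on them.

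**Figure D4:**
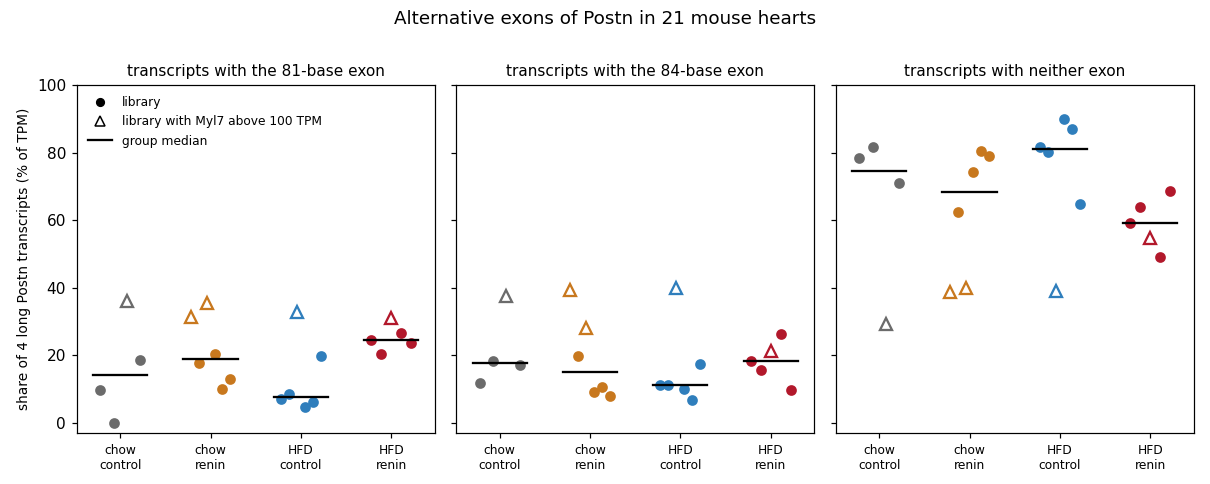
Share of 4 long Postn transcripts (percent of their TPM) with the 81-base exon, with the 84-base exon and with neither, by group. Points are libraries, open triangles the 5 libraries of high Myl7 and lines group medians. The triangles lie at 31.1% to 36.0% in the first panel, above the circles in every group.

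Across all 21 libraries Cilp, Postn and Thbs4 had the highest correlations among the members, and those of Sparc with them were lower. As a description over 21 libraries, Pearson's r of log2 CPM was 0.95 between Cilp and Thbs4, 0.92 between Cilp and Postn, 0.90 between Postn and Thbs4, and for Sparc 0.86 with Postn, 0.75 with Cilp and 0.66 with Thbs4. Without the high-Myl7 libraries these values were 0.95, 0.93, 0.92, 0.96, 0.87 and 0.84 over 16. Comp and Sparc had an r of 0.41 over 21 libraries and 0.86 over 16. Tnc had an r of 0.57 with Thbs1 and of -0.10 to 0.16 with the other 7. Thbs2 had an r of -0.54 with Sparc, and of -0.17 as deviations from group means, where Comp and Sparc had 0.23. The libraries share groups, so these values partly follow the group means: taken as deviations from group means, Cilp had an r of 0.89 with both Thbs4 and Postn, Postn and Thbs4 of 0.84, and Sparc of 0.68 with Postn, 0.48 with Cilp and 0.28 with Thbs4, while Tnc and Thbs1 had -0.22.

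Genes with the pattern most like each called member were sought among all genes tested, by r over 21 libraries. Cilp was most like Bgn (0.97), the matrix proteoglycan biglycan, and then Itgbl1, Thbs4, Ltbp2 and Adamtsl2. Postn was most like the fibrillar collagen Col5a2 (0.93), and then Mfap4, Pls3, Emilin1 and Aspn. For Thbs4 these were Cilp (0.95), Bgn, Serpinf1, Tgfb2 and Frzb, and for Sparc Loxl2 (0.92), Fbln2, Fbn1, Cmklr1 and Meox1. Thbs1 was most like Col12a1 (0.92), then Specc1, Gria3, D430019H16Rik and Nalcn, and Tnc was most like Cemip (0.90), then Lipg, Lcn2, Skp2 and Plau. The values partly follow the group means. As deviations from those means, the r ranged from 0.52 for Skp2 with Tnc to 0.97 for Bgn with Cilp. It was 0.74 for Cemip with Tnc and 0.93 for Col12a1 with Thbs1. Over the 16 libraries without high Myl7 the r of these first-named genes was 0.98 for Bgn with Cilp, 0.94 for Col5a2 with Postn, 0.95 for Cilp with Thbs4, 0.94 for Loxl2 with Sparc, 0.90 for Col12a1 with Thbs1 and 0.86 for Cemip with Tnc; the ranking was not repeated there.

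Other matricellular genes formed a list of 27, of which 24 were tested. For this and the following lists, the share of all genes called was 11.1% for HFD renin against HFD control, 8.29% for HFD renin against chow control, 13.5% for the renin effect on chow, and 9.83%, 8.34% and 10.3% without the high-Myl7 libraries. In HFD renin against HFD control 3 were called higher and 1 lower, with a median log2 difference of -0.045, and against chow control 3 higher and 0 lower. Fbln2, the elastic fibre protein fibulin 2, was higher in both, by 0.60 (SE 0.13, adjusted p = 0.007391) and 0.74 (SE 0.15, adjusted p = 0.00474). Smoc2 was higher by 0.37 and 0.59, Ccn1, which codes for CYR61, by 0.54 against HFD control, and Sparcl1 by 0.28 against chow control, while Efemp1 was lower, at -1.02, against HFD control. Without the high-Myl7 libraries 4 were called higher, with Tgfbi added, and 1 lower, Spp1 at -0.28, against HFD control, where Efemp1 was at -1.06 (adjusted p = 0.06154), and 5 higher and 0 lower against chow control. In chow renin against chow control 6 were called higher and 0 lower, led by Spock3 at 2.59, Spock1 at 2.40, Tnr at 2.27 and Spp1, which codes for osteopontin, at 2.03. Spock1, Spock3 and Tnr are known as genes of nervous tissue, and the neuron markers above were high in the same libraries.

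Receptors of matricellular proteins, 17 of 17 tested, held 2 called higher and 0 lower in HFD renin against HFD control, a share near the 11.1% of all genes called there. Itga9, the integrin alpha 9 chain that binds tenascin C and osteopontin, was higher by 1.14 (SE 0.18, adjusted p = 0.001302) and Itga5, the fibronectin receptor chain, by 0.35 (SE 0.08, adjusted p = 0.007986), and both were called in that comparison without the high-Myl7 libraries. The effect of renin on Itga9 was larger on the high-fat diet, with an interaction of 1.38 (SE 0.26, adjusted p = 0.0009375), and of 1.56 without the high-Myl7 libraries (SE 0.29, adjusted p = 0.003382). In chow renin against chow control 4 receptors were higher and 1 lower, among them Ptprz1 at 1.77 and Sdc1 at 1.09. The counts were 3 higher and 0 lower there without the high-Myl7 libraries. Against chow control, HFD renin held 3 higher and 1 lower, and 2 higher and 1 lower without them.

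Partners and regulators of these proteins, 15 of 15 tested, held 4 called higher and 1 lower in HFD renin against HFD control and the same counts against chow control. Against HFD control these were Adamts4, a protease that cuts proteoglycans, at 1.03 (SE 0.26, adjusted p = 0.01485), the ligand Tgfb2 at 0.98 (SE 0.17, adjusted p = 0.001491), Col5a2 at 0.79, Tgfb3 at 0.43, and Agtr1a, the angiotensin receptor, at -0.50 (SE 0.13, adjusted p = 0.01626). The counts without the high-Myl7 libraries were again 4 higher and 1 lower against HFD control, and 7 higher and 1 lower against chow control. In chow renin 3 were higher and 0 lower against chow control: the collagen crosslinking enzyme Lox at 2.01, Adamts4 at 1.51 and Fn1, which codes for fibronectin, at 1.09. Tgfb2 had a positive interaction of 1.16 (SE 0.24, adjusted p = 0.002619) and Lox a negative one, -1.85 (SE 0.28, adjusted p = 9.513e-05), and both were called without the high-Myl7 libraries, at 1.14 and -1.75.

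Genes of activated fibroblasts, 8 tested of 10, held 2 called higher and 0 lower in HFD renin against HFD control, Col8a1 at 1.62 (SE 0.22, adjusted p = 0.0004798) and the transcription factor Meox1 at 1.17 (SE 0.21, adjusted p = 0.001903). Leaving out the high-Myl7 libraries, 4 were called, with Ltbp2 at 2.28 and Col12a1 at 1.23 added. In chow renin against chow control 1 of 8 was called higher, Runx1 at 0.85, and without the high-Myl7 libraries 4 of 8, among them Ltbp2 at 1.49 and Col12a1 at 1.35. Genes of cardiac stress were called higher in 6 of 6 cases against HFD control and in 4 of 6 against chow control, and in 0 of 6 in chow renin against chow control, and without the high-Myl7 libraries in 5, 3 and 0. As a description over the 16 libraries without high Myl7, Ankrd1, a stretch-responsive ankyrin protein, had an r of 0.855 with Cilp, 0.80 with Thbs4, 0.65 with Postn, 0.49 with Thbs1 and 0.04 with Tnc. Over all 21 libraries these values were 0.83, 0.76, 0.62, 0.465 and 0.071, and as deviations from group means 0.61, 0.47, 0.295, 0.40 and -0.21. The other members had an r with Ankrd1 of 0.69 (Ccn2), 0.64 (Comp), 0.56 (Sparc) and -0.60 (Thbs2) over the 16 libraries. As deviations from group means over 21 libraries these 4 were 0.54, 0.37, 0.039 and -0.21. Among the 6 stress genes, the r with Cilp over the 16 libraries ranged from 0.59 for Nppb to 0.87 for Xirp2.

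The authors' deposited table gives a log2 fold change under the heading of high-fat diet with virus, with no reference group stated. In the authors' deposited table, Postn had 1.14 (adjusted p 0.003601), Cilp 1.105 (adjusted p 0.00502), Thbs4 0.44 (adjusted p 0.03484), Sparc 0.44 (adjusted p 0.002513) and Thbs1 0.35 (adjusted p 0.05386). Comp stood there at -1e-04 with an adjusted p of 0.9995, and the authors' deposited table gives adjusted p above 0.4 for Ccn2, Thbs2 and Tnc, at 0.4636, 0.4991 and 0.6256.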

How the data were processed

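RNA of 21 hearts was sequenced. Sample titles gave group and replicate. The authors deposited a transcript table per library made with Salmon 1.10.2 on GRCm38, per the submitters' processing notes. Per the file headers and values, its read column holds estimated counts that are not normalized, and its TPM column, as deposited, is scaled to a common total and corrected for transcript length. The authors also deposited a table with a signal per gene and library, and, per the file headers, the log2 fold change of a comparison of their own with its p-value after adjustment.

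Of 119215 transcripts, 97.95% were matched to GENCODE M21. The rest took 0.854% to 0.925% of each library. Per gene the estimated counts were added up, then rounded to whole numbers as the design foresaw, and 15216 genes passed filterByExpr. Tests used edgeR 4.0.16 in R 4.3.3 (TMM, robust glmQLFit, quasi-likelihood F test), with 6 comparisons from a single fit over 21 libraries and Benjamini-Hochberg adjustment over all genes. Each SE was taken as the size of the log2 difference over the root of its F value. The fit was tested on simulated data. Alternatives used DESeq2 1.42.0, limma 3.58.1 on log2 of the deposited signal plus 1, upper-quartile factors, no filter, thinned counts, 2-group fits, a replicate block, scores as covariates and each library left out.

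Within groups, 46 pairs of libraries differed with a chi-square over its degrees of freedom of 3.51 to 55.6, so none looked like a library counted again. The members and gene lists were chosen with earlier results of these data known, and the Postn exons and the set of 5 libraries (Myl7 above 100 TPM) after their values were seen. From each list, called genes were named, at most the 4 with the largest absolute change per comparison, and a few others that a comparison turned on.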

Additional observations from a re-analysis of the deposited data

Results flagged for a closer look

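Of 36 combinations of gene and group, 9 held a library set apart from its group by more than Dixon's 95% limit, where chance flags about 1 in 20 groups. Of these 9, 8 lay in high-Myl7 libraries. In chow control replicate 3 these were Cilp at 22.9 CPM, Comp at 51.4, Postn at 49.2 and Thbs1 at 34.8. In HFD control replicate 3 they were Cilp at 20.8 CPM, Comp at 37.2, Thbs1 at 45.2 and Thbs4 at 13.6. The other was Sparc at 401 CPM in HFD control replicate 6, whose fibroblast marker sum was also high. The effect of renin on Tnc differed between diets by -1.36 on the log2 scale by the interaction test, on the limits given above.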

How the results depend on the processing

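Replicate numbers are not said to pair animals, and same-numbered libraries had correlated deviations from group means (r over 0.1) in 11 of 28 pairs, with r from -0.23 to 0.42 and 0.22 or more for each pair of replicates 3, all of which are high-Myl7 libraries. With the replicate block, 5 of 9 members and 1325 of 15216 genes were called in HFD renin against chow control. In HFD control against chow control the block left 0 members and 0 genes called. Over 1719 alternative values of single members, 1538 kept direction and call, 66 lost the call, 52 gained it and 63 changed sign, 1 of them of a called value. The cause of these changes was not tested.

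For HFD renin against chow control, 1262 genes and 3 members were called. The counts were 803 and 1 with only the 2 groups, 0 and 0 with the clock score, 761 genes with limma, 6 members with the atrial score or without high Myl7, and 565 to 1723 genes (without chow control replicate 4 and HFD renin replicate 4) and 1 to 5 members with 1 library left out. For HFD renin against HFD control, 1696 genes and 3 members became 549 genes with 2 groups, 9 and 0 with the clock score, 881 genes with limma, and 6 members with the atrial score or without high Myl7. Leaving out 1 library gave 696 to 2394 genes and 1 to 4 members, the fewest without HFD renin replicate 1. The neuron score gave 35 genes and 1 member for chow renin (2048 and 2), 41 and 1 for HFD renin against chow renin (3440 and 5), and 29 and 0 for the interaction (1589 and 1). The diet alone, with 10 genes called, gave 5 with 2 groups, 21 with the clock score, 134 with the neuron score, 4 with the atrial score, 108 with DESeq2, 0 without high Myl7 and 0 to 57 with 1 library left out (57 without HFD control replicate 4). The interaction called 0 members with no filter, thinned counts or limma, 3 with the clock score, the atrial score or without high Myl7, 2 with DESeq2 and 0 to 2 with 1 library left out.

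Signs changed as follows on the log2 scale. In HFD renin against chow control, Comp gave 1.48 with the block, 0.24 with the clock score, 1.57 with the atrial score, 0.96 with limma, 2.31 without high Myl7 and -0.40 to 2.62 with 1 library left out, highest without chow control replicate 3; with the clock score Ccn2 gave -0.40 and Thbs2 0.19. In chow renin against chow control, Comp gave 0.43 with the block, 0.020 with limma, 0.072 without high Myl7 and -1.08 to 2.07 with 1 library left out. There Ccn2 gave -0.54 and Postn -0.16 with the clock score, and with the neuron score Ccn2 gave -0.21, Sparc 0.60, Thbs1 -0.024, Thbs2 -0.49 and Thbs4 -0.027. Sparc gave 0.036 without high Myl7. Leaving out 1 library gave -0.033 to 0.80 for Postn, -0.10 to 0.037 for Sparc and -0.026 to 0.37 for Ccn2. In HFD control against chow control, Cilp gave 0.23 with the block, 0.16 with the neuron score, 0.19 with the atrial score, 0.078 with limma, 0.68 without high Myl7 and -0.70 to 1.32 with 1 library left out. Thbs4 gave 0.24 with the block, 0.054 with the atrial score, 0.020 with limma, 0.19 without high Myl7 and -0.71 to 0.87 with 1 library left out. Tnc gave -0.10 with the block, -0.024 thinned, -0.015 with the clock score and -0.19 to 0.13 with 1 library left out. Thbs1 gave -0.092 with the neuron score, Comp 0.39 without high Myl7 and -2.23 to 1.92 with 1 library left out, and Sparc -0.026 to 0.20. With the neuron score, HFD renin against chow renin gave 0.69 for Thbs1 and 0.089 for Thbs2, and the interaction gave -0.23 for Postn, -0.12 for Sparc, 0.79 for Thbs1 and 0.076 for Thbs2. The interaction of Comp ranged from -1.37 to 2.77 with 1 library left out.

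Depth limits Comp, Thbs4, Cilp and Tnc most, with 28, 31, 52 and 53 estimated reads in their lowest libraries.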
